A study of Drosophila melanogaster with 3 samples.

Results

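The proteasome subunit genes of Drosophila melanogaster were described by the peaks near their transcription start sites (TSSs) in a chromatin immunoprecipitation of Ouib. They are the protein-coding genes whose symbol starts with Rpn or Rpt followed by a digit, or with Prosalpha or Prosbeta, and numbered 48 of 13945 protein-coding genes on the main chromosomes. Of these, 32 are named by digits alone, and 16 carry letters after the digits and are called paralogue copies here. The 32 comprise 6 ATPases and 4 other subunits of the base, 8 subunits of the lid, 7 alpha subunits and 7 beta subunits of the core particle.

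The proteasome degrades proteins that carry ubiquitin chains. Its core particle is a barrel of alpha and beta rings, in which Prosbeta1, Prosbeta2 and Prosbeta5 hold the caspase-like, trypsin-like and chymotrypsin-like proteolytic sites. The regulatory particle has a base, whose Rpt ATPases unfold substrates, and a lid, in which Rpn11 removes the ubiquitin chain; Rpn10 and Rpn13 are ubiquitin receptors. The paralogue copies with T or R in their symbol are known in Drosophila mainly as testis-expressed genes.

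Ouib, also called CG11762, belongs to the zinc-finger proteins and is known for its role in the prothoracic gland, where the steroid hormone ecdysone is made. The 3 samples were biological replicates of a single group: whole prepupae of mixed sex from a transgenic line that carries CG11762 fused at its C terminus to GFP, precipitated with an antibody against GFP. The promoter that drives the fusion is not given in the sources used here, and a whole animal mixes all tissues. With a single group no conditions were compared, and the depth behind each list is unknown because the peak lists hold no read counts. The authors' optimal list, thresholded on agreement between replicates, held 5048 peaks, and the pooled list and each replicate's list held 30000 peaks each, weak background included. The optimal list is part of the pooled list, and both rest on all 3 replicates, so they do not support each other independently. The nearest optimal summit to ouib itself lay 6.46 kb from its TSS.

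The stretches of reference sequence under or beside 4 of the peaks described below, and 1 promoter without a peak in the optimal or pooled list, show the sequence at or near the start of each subunit gene. They were read from the NCBI copy of the dm6 assembly, hold no annotated exon, and are printed 5' to 3' on the strand of the subunit gene. Capitals mark TATCGATA, the palindrome known in Drosophila as the binding sequence of Dref and BEAF-32, and TATAAAA, the letters of the TATA box. The latter reads TTTTATA where it lies on the other strand. Whether a marked TATAAAA acts as a TATA box was not tested. At Prosbeta6 it lies on the other strand, 141 bp upstream of the TSS. The Rpn5 stretch ends 165 bp upstream of the TSS, so its match lies farther away. The stretch of Rpn5 (chr3R:5789193-5789328, plus strand) holds the optimal summit and lies in an intron of Hat1. That of Rpn3 (chr2L:19051613-19051789, plus strand) runs up to the base before its TSS. The stretch of Prosbeta2 (chr3L:14999667-14999950, plus strand) is the whole gap between the TSSs of mRpL39 and Prosbeta2. Those of Rpn12 (chr3L:16582768-16583027, plus strand) and Prosbeta6 (chr3L:16610419-16610661, minus strand) also end at the base before the TSS.
Rpn5: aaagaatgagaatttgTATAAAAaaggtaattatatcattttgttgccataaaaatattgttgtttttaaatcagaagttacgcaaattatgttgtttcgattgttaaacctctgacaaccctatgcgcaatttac
Rpn3: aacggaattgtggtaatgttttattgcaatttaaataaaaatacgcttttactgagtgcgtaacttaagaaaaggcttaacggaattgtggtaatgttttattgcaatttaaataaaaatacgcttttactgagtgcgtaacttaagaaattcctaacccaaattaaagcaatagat
Prosbeta2: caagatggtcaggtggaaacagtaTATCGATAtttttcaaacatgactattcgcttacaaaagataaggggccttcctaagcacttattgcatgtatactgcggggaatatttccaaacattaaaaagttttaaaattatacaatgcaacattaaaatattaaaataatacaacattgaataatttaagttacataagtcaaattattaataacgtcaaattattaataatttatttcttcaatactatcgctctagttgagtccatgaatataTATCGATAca
Rpn12: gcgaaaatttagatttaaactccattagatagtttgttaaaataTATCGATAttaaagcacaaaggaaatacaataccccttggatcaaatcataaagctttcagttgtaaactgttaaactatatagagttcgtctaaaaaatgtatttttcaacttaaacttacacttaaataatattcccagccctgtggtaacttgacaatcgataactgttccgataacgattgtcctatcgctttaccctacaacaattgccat
Prosbeta6: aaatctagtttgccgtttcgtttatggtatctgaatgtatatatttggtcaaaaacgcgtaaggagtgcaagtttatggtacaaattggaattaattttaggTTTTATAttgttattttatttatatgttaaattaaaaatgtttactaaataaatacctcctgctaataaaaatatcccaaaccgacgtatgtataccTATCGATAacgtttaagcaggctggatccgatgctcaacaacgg

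The gap between mRpL39 and Prosbeta2 holds TATCGATA at both ends, 25 bp from the TSS of mRpL39 and 10 bp from that of Prosbeta2. The Rpn12 stretch holds it 24 bp from the pooled summit, and the Prosbeta6 stretch 37 bp from the TSS. These distances count from the motif base with the lowest coordinate. That base is the near edge of the motif for mRpL39 and Prosbeta6 and the far edge for Prosbeta2 and Rpn12. No TATCGATA or TATAAAA occurs in the printed Rpn3 stretch, but it holds 2 copies of a run of 72 bp, from 19051613 to 19051684 and from 19051691 to 19051762 on chromosome 2L. All 5 stretches are rich in A and T, with a GC content of 27.1% to 31.2%.

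Few proteasome genes had a strong Ouib-GFP peak at their start. Within 1000 bp of a TSS, 4 of 48 genes had an optimal summit (8.33%), against 18.0% of all coding genes. All 4 were among the 32 genes named by digits alone (12.5%). They were Rpn5, Rpn3 and Rpn8 of the lid and Prosbeta2 of the core. Thus 3 of 8 lid genes and 1 of 7 core beta genes had such a summit, and 0 of 6 base ATPases, 0 of 4 other base subunits, 0 of 7 core alpha genes and 0 of 16 paralogue copies. Rpn5 and Rpn3 encode scaffold subunits of the lid, and Rpn8 encodes the partner of the deubiquitinase Rpn11. No test was made of these counts.

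In the pooled list, which reaches down to weaker peaks, 16 of 48 genes had a summit within 1000 bp (33.3%), against 47.9% of all coding genes. Among the 32 named by digits alone the count was 14 (43.8%), closer to that share. Of the lid, 7 of 8 genes had a pooled summit, the exception being Rpn6. The base counted 1 of 6 ATPases (Rpt3) and 1 of 4 other subunits (Rpn13). In the core, 4 of 7 alpha genes (Prosalpha2, Prosalpha3, Prosalpha4 and Prosalpha5) and 1 of 7 beta genes (Prosbeta2) had one. Among paralogue copies the count was 2 of 16, Prosbeta5R1 and Rpt4R, with summits 964 bp and 783 bp upstream and pooled ranks of 28209 and 25251.

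**Figure D1:**
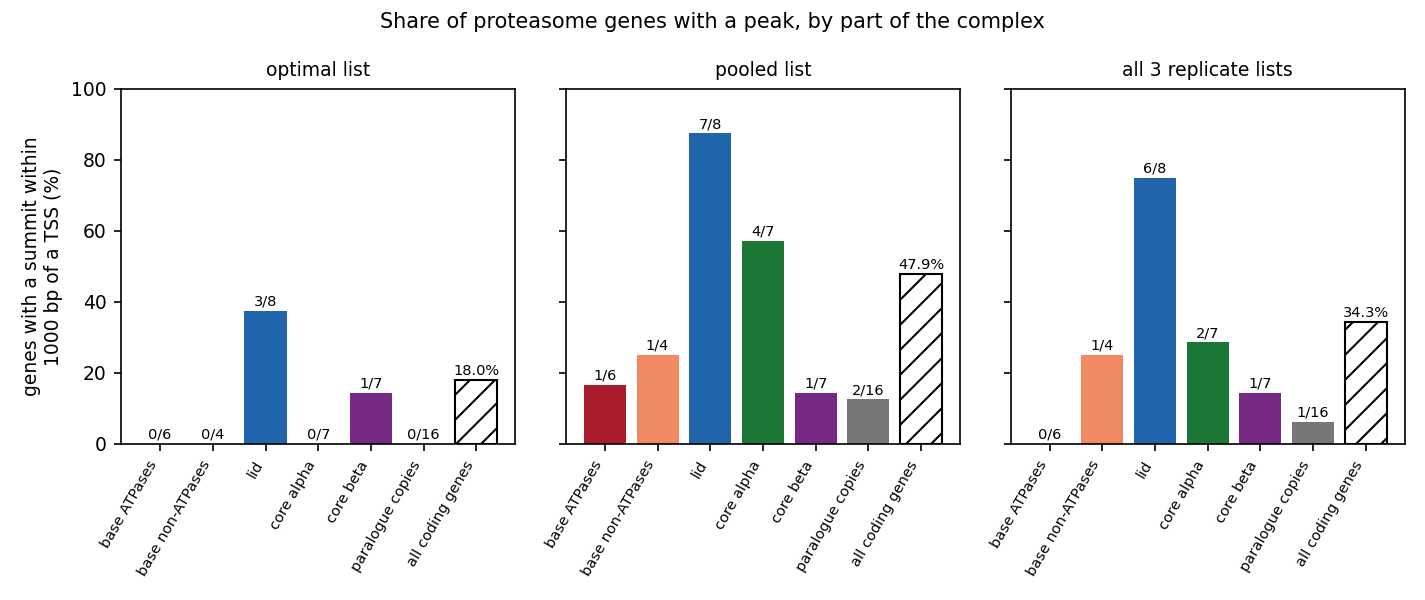
Share of genes with a summit within 1000 bp of a TSS (y axis, %), by part of the proteasome and for all coding genes (hatched), in the optimal list, the pooled list and all 3 replicate lists; the numbers over the bars are genes with a summit over genes in the group. The lid bar is the tallest in each panel, at 3, 7 and 6 of 8 genes.

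Each replicate was then taken by itself, reduced to its 5048 best peaks by signal. Replicate 1 had a best peak at 5 subunit genes, against 18.4% of all coding genes, and these were Rpn3, Rpn5, Rpn8, Prosbeta2 and Prosalpha6. Replicate 2 had one at 7, against 18.0% of coding genes, with Rpn12, Rpn13 and Prosalpha4 beside the 4 genes of the optimal list. Replicate 3 had one at 3, Rpn3, Rpn5 and Prosbeta2, against 17.8% of coding genes. The mean was 5 ± 2 subunit genes (SD, n = 3), and Rpn3, Rpn5 and Prosbeta2 had a best peak in all 3 replicates, as did 12.8% of coding genes. Of the lid, 3, 4 and 2 genes had a best peak in replicates 1, 2 and 3. No base ATPase and no paralogue copy had a best peak in any replicate. The shares among the 32 genes named by digits alone were thus 15.6%, 21.9% and 9.38% in replicates 1, 2 and 3.

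The whole replicate lists gave 22, 17 and 21 subunit genes, a mean of 20 ± 2.65 (SD, n = 3), against 52.8%, 48.8% and 52.0% of all coding genes. Among the 32 named by digits alone they gave 21, 12 and 18 (65.6%, 37.5% and 56.2%). The lid count was 7 of 8 in each replicate, with Rpn6 missing from replicates 1 and 2 and Rpn7 from replicate 3. The other parts varied more. Base ATPases counted 4, 0 and 3 of 6, core alpha genes 5, 2 and 4 of 7, core beta genes 3, 2 and 3 of 7, and paralogue copies 1, 5 and 3 of 16. Thus replicate 2 had a peak at no base ATPase and replicate 1 at 4 of them (Rpt1, Rpt2, Rpt3 and Rpt5), at ranks from 6528 to 23118 in a list of 30000.

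A peak within 1000 bp in all 3 whole lists was found at 11 subunit genes (22.9%), against 34.3% of coding genes. Among the 32 named by digits alone the count was 10 (31.2%). The 11 were 6 lid genes (Rpn3, Rpn5, Rpn8, Rpn9, Rpn11 and Rpn12), Rpn13 of the base, Prosalpha3, Prosalpha4 and Prosbeta2 of the core, and Rpt4R. The count does not ask for the same position: at Rpt4R the nearest summit lay 61, 431 and 758 bp from a TSS in replicates 1, 2 and 3. Replicates 1 and 3 each had a peak that overlaps the pooled Rpt4R peak, and replicate 2 had none. At 19 subunit genes no replicate had a peak (39.6%), against 30.4% of coding genes. Of these, 11 were among the 16 paralogue copies (68.8%), and 8 among the 32 subunit genes named by digits alone (25%). The 8 were Rpt4, Rpt6, Rpn2, Rpn10, Prosalpha1, Prosalpha7, Prosbeta5 and Prosbeta7. They include the ubiquitin receptor gene Rpn10 and the gene of the chymotrypsin-like subunit, Prosbeta5. Of the other catalytic genes, Prosbeta2 had peaks in all 3 replicates, and Prosbeta1 had one in replicate 3 alone, at rank 8562.

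**Figure D2:**
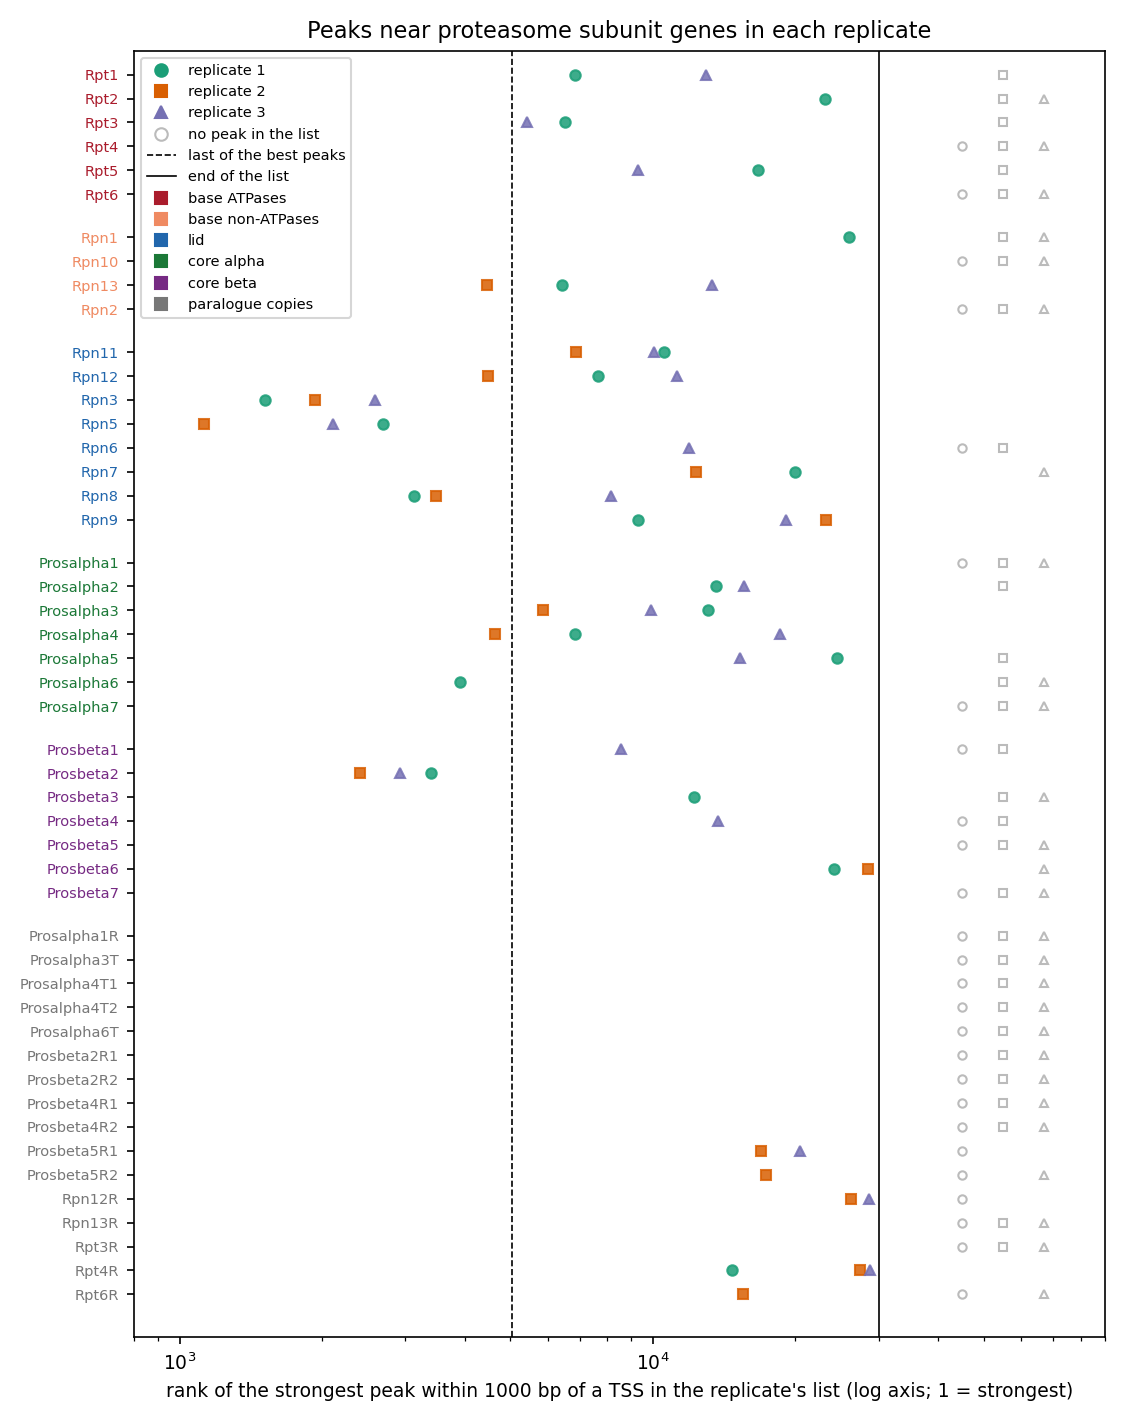
Rank of the strongest peak within 1000 bp of a TSS of each proteasome gene (rows, coloured by part of the complex) in the list of each replicate, on a log axis on which 1 is the strongest peak. Grey open symbols at the right mark a replicate with no peak there; Rpn3, Rpn5 and Prosbeta2 lie left of the dashed line, the last of the 5048 best peaks, in all 3 replicates.

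Where a peak is described below, the signal is the authors' value divided by the median of that replicate's 5048 best peaks, so that 1 is a middling strong peak. Those medians were 34.4, 45.1 and 24.8 in replicates 1, 2 and 3 on the authors' scale, which the sources used here do not state. Over the 2182 optimal peaks within 1000 bp of a coding TSS the median of this measure was 1.06, with quartiles of 0.761 and 1.81.

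Rpn5 (FBgn0028690) had the strongest peak, on chromosome 3R from 5789076 to 5789471, rank 1607 of the optimal list. Its summit at 5789274 lay 219 bp upstream of the Rpn5 TSS, inside an intron of the divergent gene Hat1, which encodes a histone acetyltransferase, and 110 bp from the Hat1 TSS. The signal was 0.958, 1.66 and 1.13 in replicates 1, 2 and 3, or 1.25 ± 0.363 (SD, n = 3). Replicate 2 was the highest, and the summits of all 3 lay within 20 bp of the optimal summit. Replicates 2 and 3 also had a weaker peak 22 bp and 39 bp upstream of the TSS, with signals of 0.225 and 0.215.

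Rpn3 (FBgn0261396) had a peak on chromosome 2L from 19051628 to 19052023, rank 1902. The summit at 19051826 lay 36 bp downstream of the TSS, in the 5' UTR, and Rpn3 was the nearest coding gene; the TSS of its neighbour l(2)37Bb was 214 bp away. Signals of 1.39, 1.19 and 0.985 in replicates 1, 2 and 3 gave 1.19 ± 0.2 (SD, n = 3). Replicates 1 and 3 had their summits 12 bp and 7 bp from the optimal summit, whereas that of replicate 2 lay 123 bp away, at 19051703, within the second copy of the repeated run printed above.

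The Prosbeta2 (FBgn0023174) peak lay on chromosome 3L from 14999590 to 14999985, rank 2499. Its summit at 14999788 was 163 bp upstream of Prosbeta2 and 122 bp from the TSS of mRpL39, a mitochondrial ribosomal protein gene, in the gap printed above. The signal was 0.829, 1.03 and 0.912 in replicates 1, 2 and 3, or 0.923 ± 0.101 (SD, n = 3), the smallest spread of the 4 optimal peaks. The summits of replicates 1, 2 and 3 were 2, 6 and 17 bp from the optimal summit. A weaker pooled summit of rank 14754 lay 38 bp downstream of the TSS.

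Rpn8 (FBgn0002787) had a peak on chromosome 2R from 24402591 to 24402986, rank 3239. Its summit at 24402789 lay 216 bp upstream of the inner of its 2 annotated TSSs, in an Rpn8 intron, and 109 bp from the TSS of Slik, which encodes a Ste20-like kinase. The signal was 0.876, 0.8 and 0.441 in replicates 1, 2 and 3, or 0.706 ± 0.232 (SD, n = 3). Replicate 3 was the lowest, and there the peak ranked 8170, outside the 5048 best. The mean signals of these 4 peaks ran from 0.706 to 1.25, and the replicate ranges of Rpn5, Rpn3 and Prosbeta2 overlapped one another.

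Another 5 genes had a summit among the 10000 strongest pooled peaks but none in the optimal list, whose lowest signal on the authors' scale was 61.1. Rpn12, a lid subunit gene, lay just under that threshold at 59.2 with a summit 192 bp upstream, and Rpn13 at 57 with a summit 69 bp upstream. Relative to the replicate medians, Rpn12 reached 0.468, 0.661 and 0.355 in replicates 1, 2 and 3, or 0.495 ± 0.155 (SD, n = 3). Rpn13 reached 0.531, 0.662 and 0.313, or 0.502 ± 0.176 (SD, n = 3). Both were highest in replicate 2 and lowest in replicate 3.

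Further down the pooled list came Prosalpha3 at rank 6985, the deubiquitinase gene Rpn11 at rank 7194 and Prosalpha4 at rank 8560. Prosalpha3 had 0.32, 0.529 and 0.387 in replicates 1, 2 and 3, or 0.412 ± 0.107 (SD, n = 3), with its summit 118 bp upstream. Rpn11 had 0.372, 0.458 and 0.384, or 0.405 ± 0.0466 (SD, n = 3), with its summit 171 bp upstream in a stretch between genes. Prosalpha4 had 0.507, 0.641 and 0.248, or 0.465 ± 0.2 (SD, n = 3), and its summit, 340 bp upstream, was 13 bp from the TSS of kat80, the gene of a katanin subunit. A second pooled summit of rank 11810 lay 15 bp upstream of the Prosalpha4 TSS, and in replicates 2 and 3 the same peak overlaps both pooled peaks. The nearest summits of replicates 1, 2 and 3 lay 575, 12 and 64 bp from that TSS, so the mean joins peaks at different positions. All 5 means lay below those of the 4 optimal peaks, a consequence of the choice by rank. Replicate 2 was the highest of the 3 at each of these 5 genes.

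**Figure D3:**
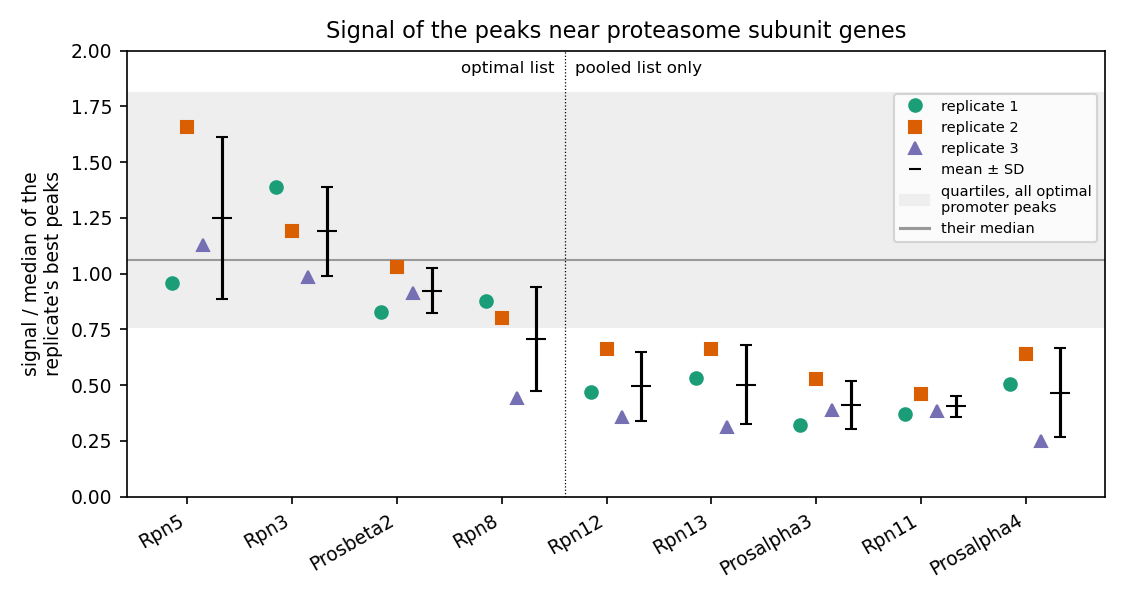
Signal of the 9 named peaks in each replicate, divided by the median of the replicate's 5048 best peaks (y axis), with mean ± SD of 3 replicates in black; the grey band and line give the quartiles and median of the 2182 optimal peaks within 1000 bp of a coding TSS. Rpn5 and Rpn3 average 1.25 and 1.19, above the median of 1.06, and the 5 genes with a pooled peak only lie below the band in every replicate.

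The remaining 7 genes with a pooled summit ranked lower in the pooled list. Rpt3, Rpn9 and Rpn7 ranked 11671, 12308 and 12459, with summits 301, 203 and 252 bp upstream. Rpt3 had signals of 0.525 and 0.592 in replicates 1 and 3, above the means of the 5 genes just described, and no overlapping peak in replicate 2. The rank of Prosalpha2 was 17051, with a summit 852 bp upstream in a coding exon of CG5245, and that of Prosalpha5 was 19581, with a summit in its own coding exon 464 bp downstream. Prosalpha6, the gene with a best peak in replicate 1 alone, ranked 3903 there at 47 bp from the TSS and had no peak within 1000 bp in replicates 2 and 3 or in the pool.

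Most of these summits lay upstream of the subunit gene. Of 18 pooled summits within 1000 bp, 15 were upstream of the subunit gene and 12 lay within 300 bp of its TSS. The TSS of another coding gene was nearer for 7 of the 18, and for 3 of the 4 optimal summits (Hat1, mRpL39 and Slik). When each summit was given only to the coding gene with the nearest TSS, 1 of 48 subunit genes kept an optimal summit, Rpn3, against 13.4% of coding genes. The same rule left 11 of 48 in the pooled list, against 39.8% of coding genes, and 9 of the 32 named by digits alone (28.1%). The lid count was then 3 of 8 (37.5%), no longer the highest, while core alpha kept 4 of 7 (57.1%). A peak in such a gap cannot be assigned to either gene from these lists.

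**Figure D4:**
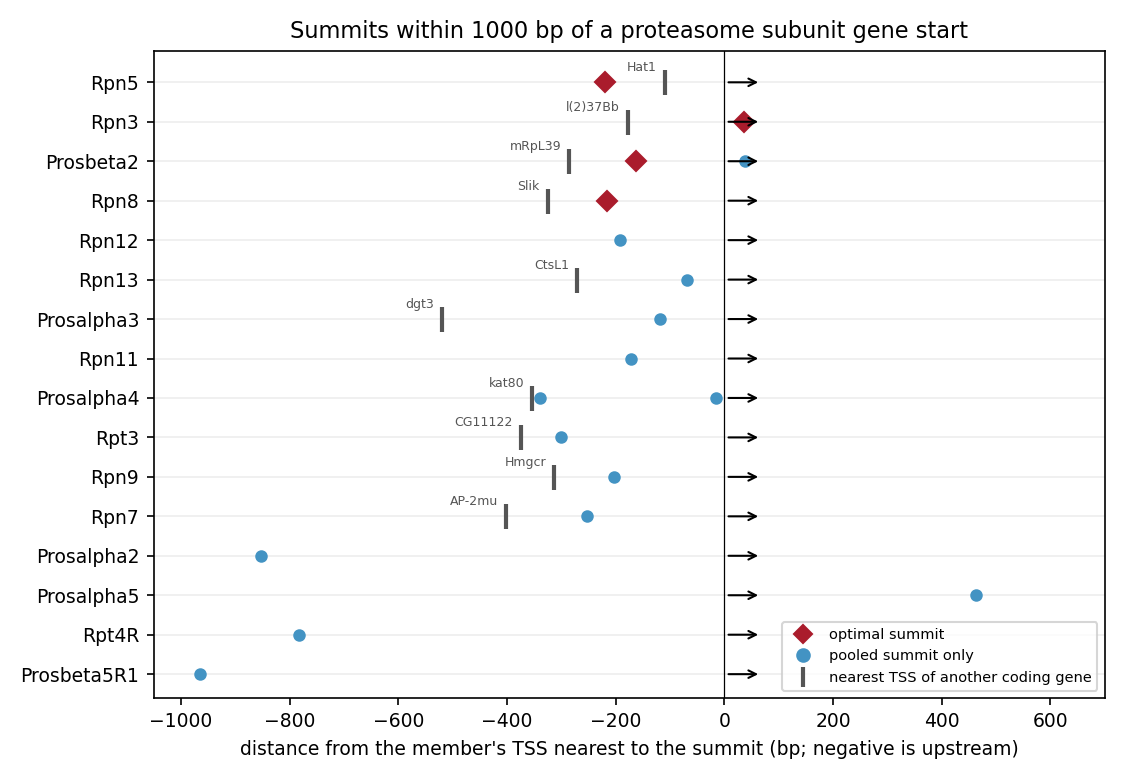
Position of each optimal (red diamonds) and pooled (blue circles) summit within 1000 bp of a proteasome gene's TSS (x axis, bp, negative upstream), with genes ordered by pooled rank; arrows show the direction of transcription and grey bars the TSS, where within 1000 bp, of the other coding gene nearest to the strongest summit. Of the 18 summits 12 lie within 300 bp of the TSS, and the summits of Rpn5, Prosbeta2 and Rpn8 are nearer to Hat1, mRpL39 and Slik.

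A divergent coding gene starts within 500 bp of 24 of 48 subunit genes (50%), against 27.4% of coding genes; the count is 21 of 32 for genes named by digits alone and 3 of 16 for paralogue copies. All 4 genes with an optimal summit are among these 24, at 4 of 24 against 30.4% of coding genes with such a neighbour. Without one the count was 0 of 24, against 13.4% of coding genes. In the pooled list the counts were 9 of 24 with a divergent neighbour, against 57.3% of coding genes, and 7 of 24 without, against 44.4%. This split was chosen after the peaks had been seen.

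Beyond 1000 bp, 14 further subunit genes had an optimal summit within 5000 bp, which makes 18 of 48 (37.5%), against 36.7% of coding genes. Only for Rpn9 and Prosbeta5R1, of these 14, was the subunit gene the nearest coding gene to that summit, at 4499 bp and 3683 bp. The others lay at neighbouring genes. The strongest, rank 218, was 2877 bp from Rpt2 and 523 bp from the TSS of CG5854, in its intron. Rpn12 was 1608 bp from a summit in an intron of Smn, the gene of a protein that assembles splicing ribonucleoproteins.

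The distance from a TSS to the nearest optimal summit had a median of 11.3 kb over the 48 genes, against 8.66 kb over all coding genes. Within the 48 it was 3.05 kb for the lid, 3.5 kb for core beta, 4.95 kb for core alpha, 8.45 kb for base ATPases and 12.2 kb for the other base subunits. The 32 genes named by digits alone had a median of 5.13 kb, and the 16 paralogue copies one of 26.7 kb, with a range of 3.44 to 81.4 kb. To the nearest pooled summit the lid had a median of 0.209 kb, the paralogue copies 4.07 kb and all coding genes 1.18 kb. Neighbouring copies are not independent: Prosbeta4R1 and Prosbeta4R2, at 81.4 kb and 79 kb, are measured to the same optimal summit.

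**Figure D5:**
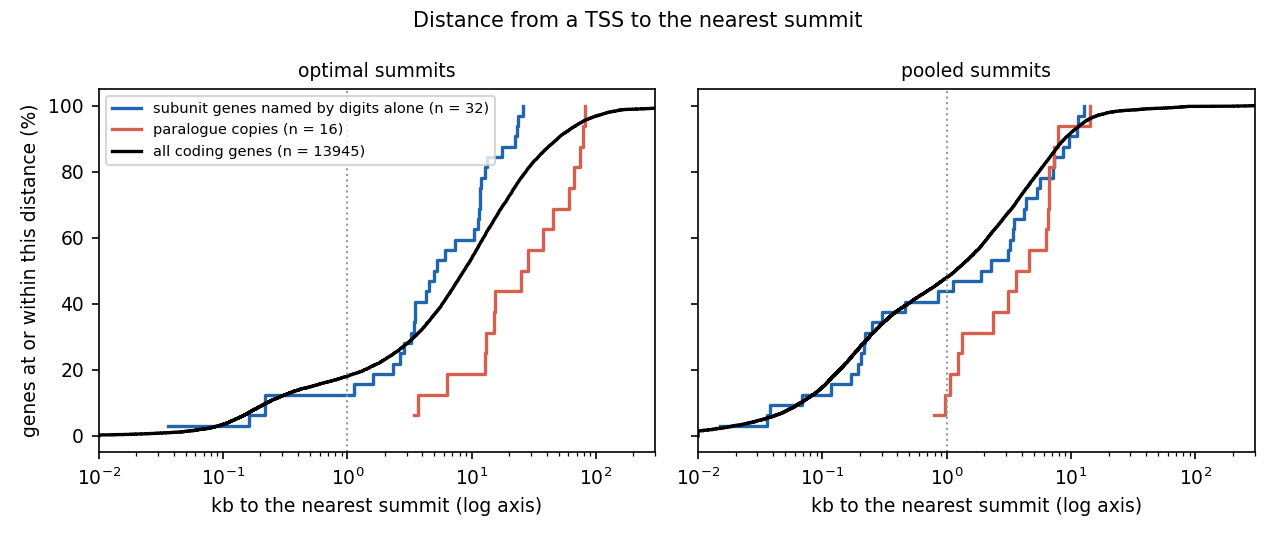
Cumulative share of genes (y axis, %) by distance from a TSS to the nearest optimal or pooled summit (x axis, kb, log scale; values under 0.01 kb are drawn at 0.01 kb), for the 32 subunit genes named by digits alone, the 16 paralogue copies and all 13945 coding genes; the dotted line marks 1 kb. The curve of the paralogue copies starts at 3.44 kb for optimal summits and, at its quartiles and median, lies to the right of the others. It ends at 81.4 kb for optimal and 14.3 kb for pooled summits, whereas the curve of all coding genes runs on beyond.

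Motifs were searched on both strands in the 300 bp from 250 bp before to 50 bp after the outermost TSS of each gene. TATCGATA was found at 12 of 48 subunit genes (25%), against 9.36% of coding genes. All 12 were among the 32 named by digits alone: Prosalpha3, Prosalpha5, Prosalpha6, Prosbeta1, Prosbeta2, Prosbeta6, Rpn3, Rpn7, Rpn9, Rpn12, Rpn13 and Rpt5. A pooled summit lay within 1000 bp of 8 of these 12, against 53.3% of coding genes with the motif. Of the other 20 genes named by digits alone, 6 had a pooled summit, and of all 36 subunit genes without the motif, 8, against 47.4% of coding genes without it. The motif lay in the 200 bp around the summit at 2 of the 4 optimal summits, Rpn3 and Prosbeta2, against 1.43% of all optimal summits. At Rpn3 this match is not the promoter match, which starts 197 bp upstream of the TSS and outside those 200 bp. For pooled summits the count was 6 of 18, against 1.05% of all pooled summits. The 6 include both pooled summits at Prosbeta2. These 2 comparisons are unlike, since the shares over all summits include summits far from any TSS and those of the subunit genes do not. This comparison with the peaks was made after they had been seen, and a match is a run of letters, not a binding site.

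Over the 48 subunit genes, shares of the other motifs were closer to those over all promoters or lower. GGTCACAC, the sequence of M1BP, was found at 5 of 48 subunit genes (10.4%), against 7.7% of coding genes, and TATAAAA at 10 (20.8%), against 24.2%. TGACNNNGC, the antioxidant response element through which cnc and maf-S act on proteasome genes, was found at 6 (Prosalpha2, Prosbeta3, Prosbeta4R2, Rpn1, Rpn7 and Rpt6), or 12.5%, against 8.63% of coding genes. GAGAG was found at 9 (18.8%), against 29.7%, and CACGTG at 0, against 4.2%. The 9 with GAGAG were 3 of the 32 genes named by digits alone (9.38%) and 6 of the 16 paralogue copies (37.5%). Among the 32, GGTCACAC and TGACNNNGC were each found at 5 (15.6%). The median GC content of these promoters was 33.2% for the subunit genes and 38% for all coding genes.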

How the data were processed

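The series measured Ouib-GFP binding in 3 biological replicates of whole prepupae, per the labels. Chromatin was sheared by sonication, per the labels. Peaks were called against a control for every replicate and for the pool of all 3, with an irreproducible discovery rate threshold for the optimal list, per the deposited file lists; control libraries were not analysed here. Aligner and caller: not given in the sources used here. Beside the signal value assigned by the authors, on an unstated scale, the lists give the −log10 of a q-value in a column of the deposited lists, which was not used. Depth is unknown, so only the spread of 3 replicates bears on precision. At most 1 interval was identical between replicates' lists.

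Gene models came from Ensembl release 115 and sequence from the NCBI copy of dm6; 199 of 200 coding starts read ATG. Coordinates count from 1. A gene was counted when a summit lay within 1000 bp of any annotated TSS of a protein-coding transcript. Each replicate was reduced to its 5048 strongest peaks, and signals were divided by their median, taking the strongest replicate peak that overlaps by 1 bp. Counts were set beside the share of all coding genes, without a test. Named genes were those with an optimal summit, or a pooled summit among the 10000 strongest peaks. Prosalpha6, the genes of weaker pooled peaks and the summits beyond 1000 bp were named once their values were known. The members, gene lists and motifs were chosen with earlier results of these data known. Counting was tested on simulated data with planted summits. Alternatives covered the window, the TSSs, the threshold on peaks and each replicate left out. Software was Python 3.11.15 with numpy 2.4.6, pandas 2.3.3 and, for plots, matplotlib 3.10.9.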

Additional observations from a re-analysis of the deposited data

How the results depend on the processing

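The count of 4 subunit genes with an optimal summit was 2 with a window of 200 bp (8.99% of coding genes), 18 with 5000 bp (36.7%), 1 when only the nearest coding gene counted (13.4%) and 0 among the 500 strongest peaks (2.98%). The 16 with a pooled summit became 7 at 200 bp (26.9% of coding genes) and 9 among the 10000 strongest (28.4%). With the nearest coding gene only, an alternative chosen after seeing the data, it was 11 (39.8%). The mean of 5 with a best peak was 1.67 with 2500 best peaks per replicate (10.2% of coding genes) and 9.33 with 10000 (29.2%). A wider window or longer list adds genes by construction. In 200 bp centred on the TSS, GAGAG was found at 4 subunit genes (22.4% of coding genes) and CACGTG at 1 (2.88%). The optimal list could not be called again without a replicate. Instead, optimal peaks overlapping a best peak of each remaining replicate were counted. Leaving out replicates 1, 2 and 3 in this way gave 3, 3 and 4 genes, against 13.6%, 13.4% and 14.1% of coding genes. With each replicate left out, the best peaks gave 4 to 6 genes (17.9% to 18.2% of coding genes). The whole lists gave 19 to 21.5 (50.4% to 52.4%). The signals of all 9 named peaks stayed within 1 SD with each replicate left out. That outcome is no sign of stability, since dropping 1 of 3 values cannot move their mean by 1 SD. With summits matched within 150 bp, the signals were unchanged at every named peak but Prosalpha4. At Prosalpha4 the 150 bp match gave 0.445, the value without replicate 1, since no replicate 1 summit lay that near. Over the median of the whole list all 9 moved, since that is another scale. No paired analysis was possible because the series holds a single group. Depth is unknown, so a gene without a peak may have one too weak to be listed.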

Other observations

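A list of 23 other genes of the ubiquitin and proteasome pathway was matched in full. Of these, 7 had an optimal summit within 1000 bp (30.4%), against 18.0% of all coding genes, and 15 had a pooled summit (65.2%), against 47.9%. Of the 7, 3 were the regulators cnc, maf-S and Keap1; without them the counts were 4 of 20 (20%) and 12 of 20 (60%), a split made after the values were seen. Among the regulators, Keap1, which holds cnc in check, reached 4.67 ± 1.05 times the replicate median (SD, n = 3) at its strongest summit, 948 bp from a TSS, while another optimal summit lay 78 bp from one. The gene cnc, the relative of Nrf factors that drives proteasome genes in Drosophila, reached 1.8 ± 0.158 (SD, n = 3). The partner of cnc, maf-S, reached 0.714 ± 0.206 (SD, n = 2). Pomp, the chaperone of core particle assembly, reached 1.2 ± 0.199 (SD, n = 2) and PI31, a proteasome regulator, 0.698 ± 0.278 (SD, n = 3). Npl4, a cofactor of the TER94 segregase, reached 0.807 ± 0.0951, and RpS27A, a ubiquitin fusion gene, 0.726 ± 0.15 (SD, n = 3 each). Where n is 2, a replicate had no peak overlapping the optimal peak and was left out.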
